A study of Mus musculus with 20 samples.

Results

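The less abundant Muribaculaceae of mouse feces were followed after chemotherapy. They were taken as every entry of the family Muribaculaceae with a count above 0 whose genus was neither CAG-873 nor UBA7173, the pair of genera that holds most reads of the family. The rule gave 6 of the 149 genus entries with a count (Duncaniella, UBA3263, CAG-485, Paramuribaculum, Muribaculum and reads of the family without a genus name) and 12 of the 204 species entries with a count. Abundance in these same samples therefore chose the members, so their levels are given as a description. Together they held 139411 of 902325 reads (15.4%), against 51.0% for CAG-873 and UBA7173. No member genus had more reads than UBA7173 in any of the 20 samples, so that the name fits the data. UBA7173 itself, just outside the rule, had a mean share of 18.4% of total reads, and Duncaniella, the most abundant genus inside it, one of 4.58%. At the other end the rule admitted CAG-485 sp002493045 on 2 reads in a single control sample, which is too few to compare, and no column of the family was without a count.

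Muribaculaceae, formerly called S24-7, is a family of strictly anaerobic Bacteroidales that is prominent in the gut of laboratory mice. Its members are known for breaking down plant and host polysaccharides and for releasing short-chain fatty acids such as acetate and propionate. Muribaculum intestinale, Duncaniella muris and Paramuribaculum intestinale are cultured species from the mouse intestine, while names such as CAG-485 and UBA3263 stand for groups that were defined from assembled genomes.

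Feces of female C57BL/6 mice were profiled by sequencing the V4 region of the 16S rRNA gene, with 1 pellet per mouse. The 10 FO samples came from mice injected intraperitoneally with oxaliplatin (3.5 mg/kg), 1 hour later with 5-fluorouracil (50 mg/kg), and on the next day with the same dose of 5-fluorouracil. The 10 control samples came from mice given PBS or water on the same schedule, and all pellets were taken 5 days after treatment. Each group had 5 samples in a batch labelled E53B and 5 in a batch labelled E56A, and mice were co-housed before the experiments, for which the cage of each mouse was not given in the sources used here. Total counts ran from 36797 to 57415 in the control group (median 45187) and from 17218 to 53509 in the FO group (median 50102). Shares are shares of reads and carry no correction for the number of 16S rRNA gene copies per genome. A smaller share of 1 taxon and a larger amount of all others cannot be told apart in such data.

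In batch E56A, 2 samples went against their labels in most member species. Control replicate 1 lay nearer to the mean of the other FO samples of its batch in 9 of 11 member species, and FO replicate 5 lay nearer to the control mean in 8 of 11, against 0 to 4 of 11 in the other 8 samples of E56A. Of the 6 member genera, 3 lay nearer to the other group in each of these samples, against 0 to 2 in the other 8. Among the 32 species entries outside the family, the same count was 15 in control replicate 1 and 14 in FO replicate 5, and it ran from 4 to 15 in the other E56A samples. The labels were kept. Whether the 2 samples were exchanged was not tested, and values over all samples are given as labelled. The TMM changes are also given without this pair of samples and in each batch alone. The pair was picked by member values that oppose the difference between the groups, so values without it are a description of the other 18 samples, and separation or a larger change among them is partly fixed by that choice.

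Over all 20 samples Duncaniella, at a mean of 4.58%, was followed in abundance by UBA3263 at 4.26% and by the entries without a genus name at 2.19%. CAG-485 was at 1.91%, Paramuribaculum at 1.31% and Muribaculum at 1.17%. The order differed by group, with UBA3263 (4.33%) above Duncaniella (3.52%) in FO samples and CAG-485 (1.93%) above the entries without a genus name (1.67%) in control samples. The Duncaniella and UBA3263 means differed by less than the SD of either genus, and so did those of Paramuribaculum and Muribaculum. All 6 genus entries had over 3 reads in all 20 samples. Within the control group the spread between mice was lowest in Muribaculum, with a coefficient of variation of 19.4%, and highest in the entries without a genus name, at 59.2%. Without control replicate 1 that order turned, with 11.6% in the entries without a genus name, 13.4% in Paramuribaculum and 17.2% in Muribaculum.

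**Figure D1:**
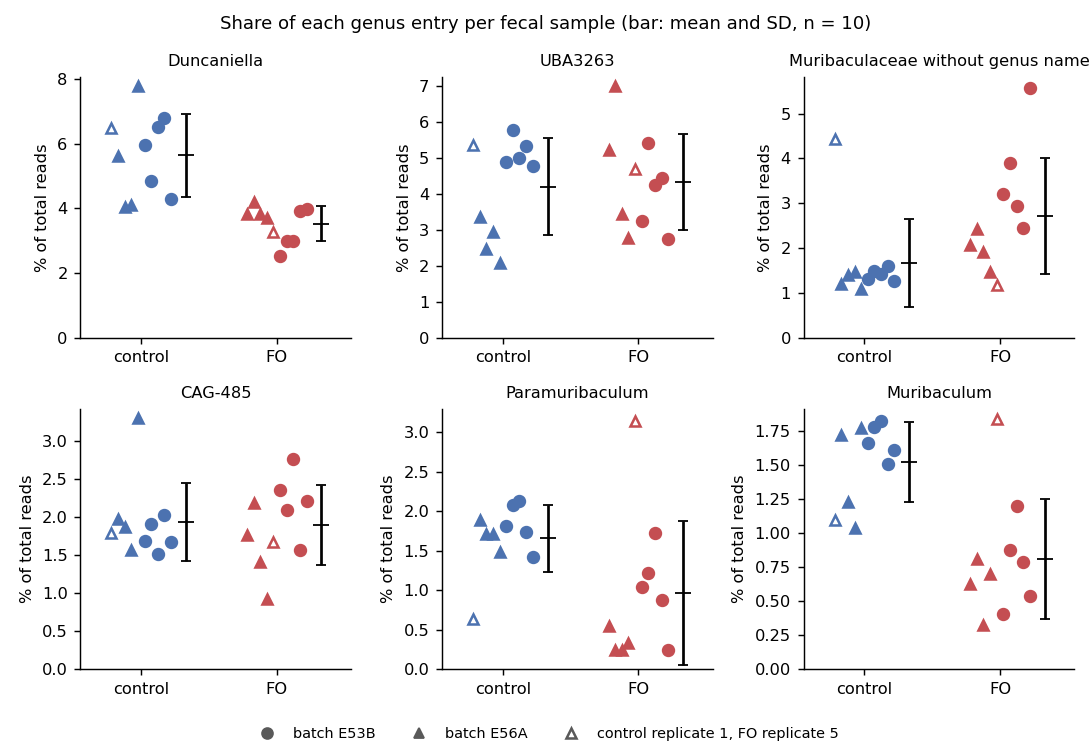
Each panel plots the share of total reads (vertical axis, %) of a genus entry in the 10 control and 10 FO samples, with circles for batch E53B, triangles for E56A, open triangles for control replicate 1 and FO replicate 5, and a bar for the mean and SD. Of the FO samples, 9 lie below every control sample for Duncaniella and 8 for Muribaculum, while the groups overlap for UBA3263 and CAG-485.

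The first comparison asked whether the members as a whole followed the family. The summed share of the members was lower after FO by less than the dominant genera were, so that they made up a larger part of a smaller family. Members held 12.7% to 19.8% of total reads in the control group (median 17.4%) and 9.93% to 16.9% in the FO group (median 14.7%), a mean of 16.6% ± 2.46 (SD, n = 10) against 14.2% ± 2.32 (SD, n = 10). The groups overlapped, with 2 FO samples below every control sample. CAG-873 and UBA7173 together went from 62.3% ± 6.81 (SD, n = 10) to 39.2% ± 8.33 (SD, n = 10), and 9 of 10 FO samples lay below every control sample. Among Muribaculaceae reads alone the members held 21.3% ± 4.22 (SD, n = 10) in control samples and 26.9% ± 4.42 (SD, n = 10) in FO samples. The difference of 5.68 percentage points was 6.17 in batch E53B and 5.18 in batch E56A. With all samples 2 of 10 FO samples exceeded the highest control sample. Without the pair that went against its labels the difference was 7.35, and 7 of the 9 FO samples then exceeded the highest control sample. The choice of the pair partly fixes that count. The rise came from 3 of the 6 entries. UBA3263 went from a mean of 5.41% to 8.19% of the family, the entries without a genus name from 2.21% to 5.20% and CAG-485 from 2.44% to 3.59%, while the means of Duncaniella, Muribaculum and Paramuribaculum were lower after FO. The 5 named genera alone held 19.1% ± 3.13 (SD, n = 10) and 21.7% ± 3.67 (SD, n = 10), a difference of 2.68 percentage points. No p is given for these sums, since the members were chosen with results known.

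**Figure D2:**
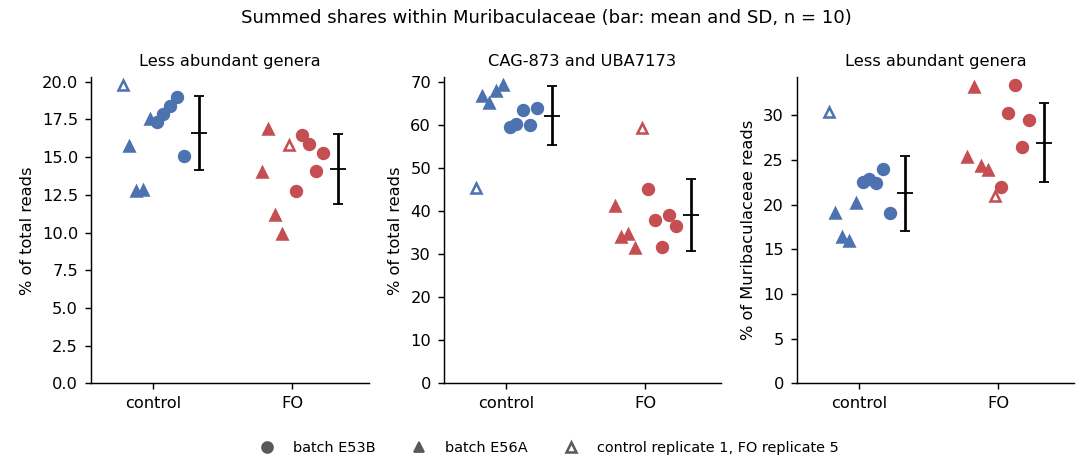
The panels plot the summed share (vertical axis, %) of the less abundant genera in total reads, of CAG-873 and UBA7173 in total reads, and of the less abundant genera in Muribaculaceae reads, in 10 control and 10 FO samples (symbols by batch, open triangles for control replicate 1 and FO replicate 5, bar for mean and SD). The mean of CAG-873 and UBA7173 goes from 62.3% to 39.2% while the members go from 16.6% to 14.2%.

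The second comparison tested each genus with the quasi-likelihood test of edgeR in a model of group and batch, with p-values adjusted over all 59 genera tested. The answer depends on what a count is set against, so 3 scales are given. TMM scaling takes most taxa as unchanged, a plain share takes the total as the base, and the last fit takes Muribaculaceae reads as the base. The median log2 change over all genera was 0.23 on the first scale, 0.99 on the second and 1.60 on the third, and each member is to be read against that shift. With TMM scaling 4 of 6 members were called lower after FO and 0 higher, against 7 of 59 genera called lower (11.9%) and 6 of 59 higher (10.2%). Their median log2 change was −1.18. Against the total, 2 of 6 members were lower (4 of 59 genera, 6.78%) and 25 genera were called higher, none of them a member.

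Duncaniella fell with TMM scaling and against the total, and against the family its change lay within its error. It ran from 4.06% to 7.79% of total reads in control samples (median 5.78%) and from 2.53% to 4.20% in FO samples (median 3.77%), and 9 of 10 FO samples lay below every control sample. The log2 change was −1.51 ± 0.23 (SE) with TMM scaling (edgeR, adjusted p = 6.87e-05) and −0.68 ± 0.16 against the total (edgeR, adjusted p = 0.00236). Against Muribaculaceae reads it was −0.09 ± 0.18 (edgeR, adjusted p = 0.68), with a mean of 7.19% ± 1.71 (SD, n = 10) of the family in control samples and 6.80% ± 1.64 (SD, n = 10) in FO samples. Leaving out the pair put the last of these changes at 0.03 ± 0.18, so that its sign is not settled.

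Muribaculum, the genus after which the family is named, also fell with TMM scaling and against the total. Its share ran from 1.03% to 1.82% in control samples (median 1.64%) and from 0.322% to 1.84% in FO samples (median 0.747%). The highest FO value was that of FO replicate 5, and without the pair the FO range ended at 1.2%. The log2 change was −1.73 ± 0.32 (edgeR, adjusted p = 0.000293) with TMM scaling and −0.90 ± 0.28 (edgeR, adjusted p = 0.00997) against the total. Against Muribaculaceae reads the genus changed by −0.36 ± 0.27, which did not pass the test (edgeR, adjusted p = 0.215).

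Paramuribaculum had the widest relative spread of the 6 in the FO group, with a coefficient of variation of 94.8%. Its share ran from 0.635% to 2.13% in control samples (median 1.73%) and from 0.248% to 3.15% in FO samples (median 0.714%). Both the lowest control value and the highest FO value belonged to the pair that went against its labels. The genus was lower with TMM scaling, by −1.55 ± 0.45 on the log2 scale (edgeR, adjusted p = 0.0163), and did not pass against the total at −0.78 ± 0.42 (edgeR, adjusted p = 0.113). Without the pair the TMM value was −2.43 ± 0.37 and 8 of 9 FO samples lay below every control sample, a separation that the choice of the pair partly fixes. With all samples the groups overlapped, and 0 of 59 genera were called lower against Muribaculaceae reads. With 1 sample left out at a time, Paramuribaculum on that scale ran from −0.78 to −0.21 (edgeR, adjusted p from 0.0448 to 0.604). Its change there was −0.82 ± 0.33 without the pair, and −0.78 without FO replicate 5 alone.

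For CAG-485 and UBA3263 no change in the share of total reads passed the test. CAG-485 ran from 1.51% to 3.30% in control samples (median 1.83%) and from 0.924% to 2.76% in FO samples (median 1.93%). UBA3263 ran from 2.07% to 5.78% (median 4.84%) and from 2.75% to 7.01% (median 4.35%). Both groups overlapped over most of their range in these genera. With TMM scaling CAG-485 was called lower at −0.86 ± 0.28 (edgeR, adjusted p = 0.0269), a call that is lost without the pair (−1.02 ± 0.36, adjusted p = 0.0531) and against the total (−0.04 ± 0.21, adjusted p = 0.847). UBA3263 was at −0.64 ± 0.24 with TMM scaling (edgeR, adjusted p = 0.0552) and at 0.08 ± 0.22 against the total (edgeR, adjusted p = 0.749), so that its direction depends on the scale. The TMM call of CAG-485 was also lost in 6 of 20 fits that each left out 1 sample (control replicates 5, 8, 9 and 10 and FO replicates 4 and 5, adjusted p from 0.0521 to 0.0661), and UBA3263 gained a call without control replicate 3, control replicate 4 or FO replicate 2 (adjusted p from 0.0103 to 0.0361). Against Muribaculaceae reads both were higher after FO, CAG-485 by 0.54 ± 0.22 (edgeR, adjusted p = 0.035) and UBA3263 by 0.62 ± 0.23 (edgeR, adjusted p = 0.0237). UBA3263 did not pass in either batch alone, at 0.23 ± 0.20 in E53B (edgeR, adjusted p = 0.319) and 1.02 ± 0.40 in E56A (edgeR, adjusted p = 0.0705). In E53B its share of the family spread to both sides, with 2 of 5 FO samples below and 3 above every control sample. The call of CAG-485 was lost in E56A alone (0.17, adjusted p = 0.752), with no filter on low counts (0.54, adjusted p = 0.0686) and in 8 of 20 fits (without control replicate 4, 6, 7, 8 or 10 or FO replicate 2, 7 or 8, adjusted p from 0.0507 to 0.0669).

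The entries without a genus name had the largest positive change of the 6 against Muribaculaceae reads. Their share ran from 1.08% to 4.44% in control samples (median 1.42%) and from 1.18% to 5.57% in FO samples (median 2.44%). The highest control value was that of control replicate 1, and the other 9 control samples lay between 1.08% and 1.59%. With TMM scaling they changed by −0.04 ± 0.28 on the log2 scale (edgeR, adjusted p = 0.921) and 0.64 ± 0.30 against the total (edgeR, adjusted p = 0.0788). Against Muribaculaceae reads it was 1.19 ± 0.34 (edgeR, adjusted p = 0.00489), from 2.21% ± 1.63 (SD, n = 10) to 5.20% ± 2.47 (SD, n = 10) of the family. In this fit 3 of 6 members were higher and 0 lower, where 40 of 59 genera (67.8%) were higher. In E56A alone 0 of 6 members and 4 of 62 genera were higher. The entries without a genus name were at 0.44 there (edgeR, adjusted p = 0.533). Without the pair the change was 1.68 ± 0.21, and the control range of 1.25% to 2.01% of the family and the FO range of 3.53% to 10.7% did not overlap, as was so in the same direction for 11 of 45 species entries (24.4%).

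**Figure D3:**
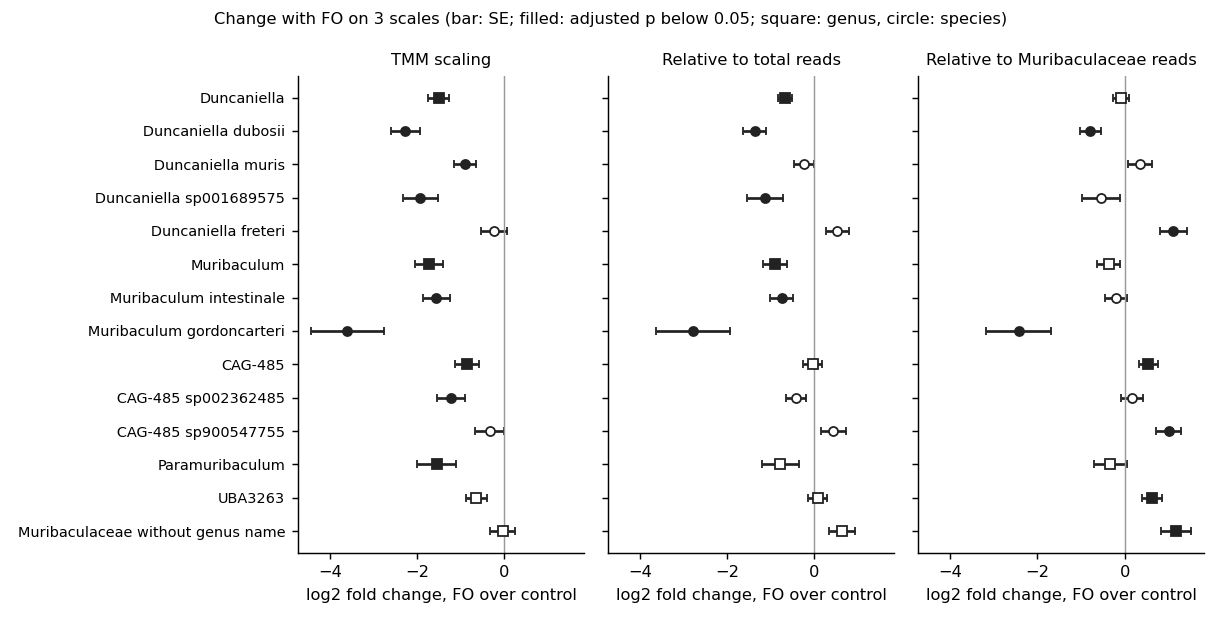
The log2 fold change of FO over control (horizontal axis) is drawn with its SE for each genus (squares) and for the species of genera with several (circles), with TMM scaling, against total reads and against Muribaculaceae reads; filled symbols passed an adjusted p of 0.05 in edgeR. Muribaculum gordoncarteri and Duncaniella dubosii are on the lower side on all 3 scales, and Duncaniella freteri moves from −0.24 to 0.52 and 1.11.

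The third comparison went to the species. Of the 12 species entries, 11 passed the filter on low counts, and UBA3263 sp001689615, Paramuribaculum intestinale and the entry without a name hold the same reads as their genus. With TMM scaling 7 of the 11 were called lower after FO and 0 higher, against 10 of 71 species entries called lower (14.1%). Their median log2 change was −1.22, against 0.29 over all 71. Against the total 4 of 11 were lower, where 6 of 71 (8.45%) were lower over all entries. Species of the same genus differed, and the rest of this account takes them in turn.

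Over all samples Muribaculum gordoncarteri had the largest change of all members, which was not so in E56A alone. It had 86 to 171 reads in 9 control samples and 6 in control replicate 1, and it had 3 to 6 reads in 9 FO samples and 212 in FO replicate 5. As a share of total reads that is 0.209% to 0.299% in the 9 control samples and 0.00576% to 0.0174% in the 9 FO samples. The exceptions were 0.0135% in control replicate 1 (95% Wilson interval 0.00617% to 0.0294%) and 0.396% in FO replicate 5 (95% Wilson interval 0.346% to 0.453%). In other words the 2 groups were apart in 18 samples. Control replicate 1 lay within the range of the 9 FO samples, and FO replicate 5 lay above that of the 9 control samples. Over 3 reads were found in 10 of 10 control samples and 5 of 10 FO samples, and after drawing all samples down to 17218 reads in a mean of 9.18 and 1.29. The log2 change was −3.60 ± 0.84 with all samples (edgeR, adjusted p = 0.0036) and −5.55 ± 0.35 without the pair, where the mean share was 26.5-fold lower after FO. No p is given for the latter, since this species is among those by which the pair was picked. It was −2.79 ± 0.84 against the total (edgeR, adjusted p = 0.011), and with TMM scaling it was −5.44 ± 0.46 in batch E53B alone (edgeR, adjusted p = 1.52e-06) and −1.69 ± 1.27 in E56A alone, where it did not pass (edgeR, adjusted p = 0.48). At 3 to 6 reads the FO levels are known only roughly, since intervals on them cover counting error alone and amplified reads are not independent molecules.

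Muribaculum intestinale, the type species of the genus, carried most of its reads and fell less. Its share ran from 0.764% to 1.59% in control samples (median 1.41%) and from 0.317% to 1.44% in FO samples (median 0.736%). The groups overlapped, with 5 FO samples below every control sample. The log2 change was −1.56 ± 0.30 with TMM scaling (edgeR, adjusted p = 0.000709) and −0.76 ± 0.26 against the total (edgeR, adjusted p = 0.0198). Within the genus the log ratio of M. intestinale over M. gordoncarteri was 2.83 ± 0.61 higher after FO (limma, adjusted p = 0.00143 over 18 pairs of species of a genus). In E56A alone this ratio changed by 2.32 and did not pass (limma, adjusted p = 0.31). M. gordoncarteri made up 15.2% ± 6.52 (SD, n = 10) of Muribaculum reads in control samples and 3.59% ± 6.39 (SD, n = 10) in FO samples, or 16.7% ± 4.56 (SD, n = 9) and 1.60% ± 1.09 (SD, n = 9) without the pair.

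**Figure D4:**
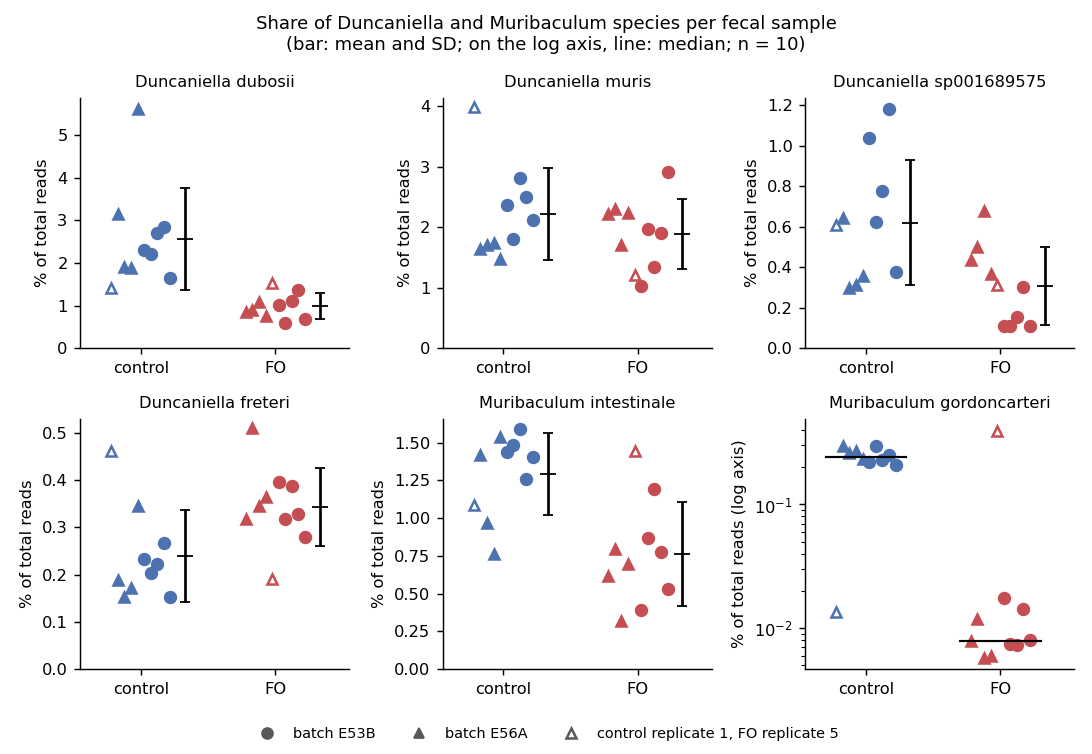
Each panel plots the share of total reads (vertical axis, %, on a log axis for Muribaculum gordoncarteri) of a species in 10 control and 10 FO samples, with symbols by batch, open triangles for control replicate 1 and FO replicate 5, and a bar for the mean and SD (a line for the median on the log axis). For M. gordoncarteri the open triangles lie with the other group, and for Duncaniella sp001689575 the E53B circles separate while the E56A triangles overlap.

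Duncaniella held 4 named species that did not move alike. Duncaniella dubosii fell on all 3 scales. Its share ran from 1.42% to 5.61% in control samples (median 2.25%) and from 0.592% to 1.53% in FO samples (median 0.945%), and 9 of 10 FO samples lay below every control sample. With TMM scaling its log2 change was −2.27 ± 0.33 (edgeR, adjusted p = 2.53e-05). It was also lower against the total, at −1.37 ± 0.25 (edgeR, adjusted p = 0.000694), and against Muribaculaceae reads, at −0.78 ± 0.24 (edgeR, adjusted p = 0.00714). D. dubosii and M. gordoncarteri were the 2 of 71 entries (2.82%) called lower on that last scale. Neither passed there in E56A alone (−0.86 and −1.14, edgeR, adjusted p = 0.128 and 0.41). With the pair left out they were also the 2 of 45 entries with a mean share of at least 0.1% (4.44%) in which the highest FO value was under the lowest control value, a count that the choice of the pair partly fixes. With all samples there were 0 of 45 (0%).

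Duncaniella muris changed less than D. dubosii. Its mean of 2.22% in control samples was under the 2.57% of D. dubosii, and its 1.88% in FO samples was above the 0.986% of D. dubosii. Its share ran from 1.48% to 3.99% in control samples (median 1.97%) and from 1.02% to 2.92% in FO samples (median 1.94%). The highest control value, again that of control replicate 1, left a range of 1.48% to 2.82% when it was set aside. On the log2 scale it changed by −0.91 ± 0.25 with TMM scaling (edgeR, adjusted p = 0.0107) and −0.23 ± 0.23 against the total (edgeR, adjusted p = 0.361). Against Muribaculaceae reads the value was 0.35 ± 0.27 (edgeR, adjusted p = 0.251), and 0.64 ± 0.22 without the pair. Leaving out control replicate 1 alone gave 0.57.

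Duncaniella freteri, the least abundant of the 4 in control samples, rose in ratio to each of the other 3. Its share ran from 0.152% to 0.462% in control samples (median 0.213%) and from 0.191% to 0.510% in FO samples (median 0.337%). The highest control value was that of control replicate 1 and the lowest FO value that of FO replicate 5. D. freteri changed by −0.24 ± 0.30 on the log2 scale with TMM scaling (edgeR, adjusted p = 0.584) and 0.52 ± 0.27 against the total (edgeR, adjusted p = 0.104), a direction that depends on the scale. Against Muribaculaceae reads D. freteri was higher after FO by 1.11 ± 0.31 (edgeR, adjusted p = 0.00409), on a scale where 48 of 71 entries (67.6%) were higher. Of the members, CAG-485 sp900547755, UBA3263 and the entry without a name were the others called higher there. In E56A alone 0 of 11 members and 1 of 73 entries were called higher on that scale, with D. freteri at 0.99 (edgeR, adjusted p = 0.206).

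The pairwise ratios compare the species without any scale, since the total cancels. Of 18 pairs of species within a genus, 5 were called (27.8%), and all 5 were among the 8 pairs formed by members. D. dubosii fell against D. freteri by 1.89 ± 0.31 on the log2 scale (limma, adjusted p = 0.000109) and against D. muris by 1.09 ± 0.38 (limma, adjusted p = 0.0346). D. muris fell against D. freteri by 0.80 ± 0.26 (limma, adjusted p = 0.0232). Duncaniella sp001689575 fell against D. freteri by 1.69 ± 0.39 (limma, adjusted p = 0.00189). Ordered by change, D. freteri came before D. muris and D. muris before D. dubosii, while the place of D. sp001689575 depended on the batch. The ratio of D. dubosii over D. sp001689575 changed by −0.20 ± 0.40 over both batches (limma, adjusted p = 0.661), but by 1.00 ± 0.29 in E53B (limma, adjusted p = 0.0186) and −1.40 ± 0.52 in E56A (limma, adjusted p = 0.195), or −2.01 ± 0.42 in E56A without the pair. The pooled value thus averages opposite signs, and the difference between the batches in this ratio was not tested. The other steps also varied by batch. D. muris over D. freteri was at −1.09 ± 0.38 in E53B (limma, adjusted p = 0.0388) and −0.51 ± 0.34 in E56A (limma, adjusted p = 0.374), and D. sp001689575 over D. freteri at −3.01 ± 0.35 (limma, adjusted p = 7.10e-05) and −0.38 ± 0.40 (limma, adjusted p = 0.607). Without the pair neither passed in E56A (−0.53 and −0.55, limma, adjusted p = 0.377 and 0.401). D. dubosii over D. freteri did not pass in E56A alone (−1.77, limma, adjusted p = 0.181). D. dubosii over D. muris did not pass in E53B (−0.92 ± 0.42, limma, adjusted p = 0.107) or in E56A (−1.26 ± 0.62, limma, adjusted p = 0.31). It lost its call in 9 of 20 fits that each left out 1 sample (control replicates 2, 5, 7 and 9 and FO replicates 1, 2, 4, 7 and 10, adjusted p from 0.053 to 0.0695) and was larger without the pair (−1.41 ± 0.34).

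As a share of Duncaniella reads, D. dubosii went from 44.9% ± 12.9 (SD, n = 10) in control samples to 28.8% ± 10.3 (SD, n = 10) in FO samples. D. muris went from 40.1% ± 11.3 (SD, n = 10) to 52.8% ± 11.6 (SD, n = 10), and D. freteri from 4.19% ± 1.09 (SD, n = 10) to 9.97% ± 2.93 (SD, n = 10). For D. freteri 8 of 10 FO samples exceeded the highest control sample. Without the pair the control range of 3.35% to 4.44% and the FO range of 6.99% to 15.6% did not overlap, as was the case in the same direction for 2 of the 19 species entries examined (10.5%), the other being M. intestinale. M. gordoncarteri was the 1 of 19 (5.26%) in the opposite direction. Those 2 Muribaculum species hold all reads of their genus, so the separation of either one fixes that of the other.

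**Figure D5:**
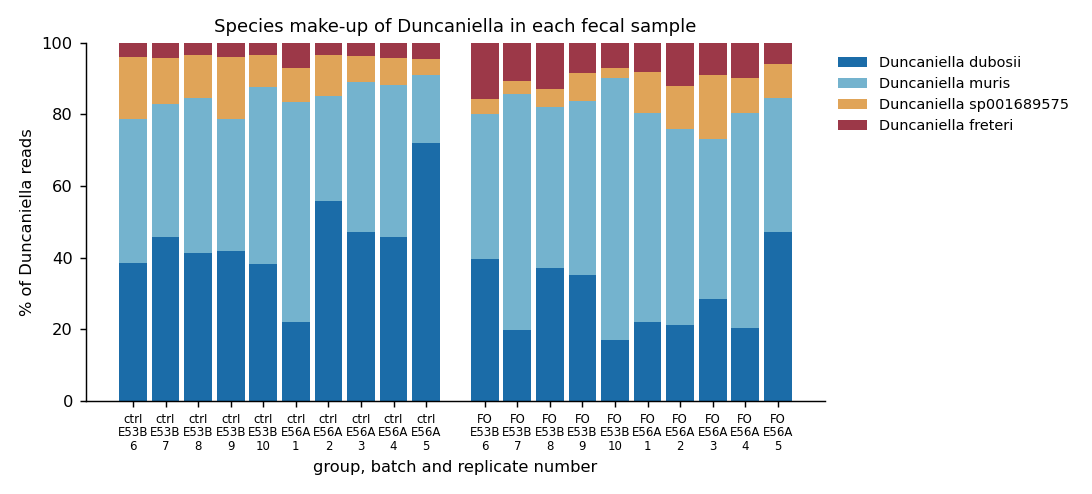
Stacked bars give the percentage of Duncaniella reads (vertical axis) assigned to each of 4 species in the 10 control (ctrl) and 10 FO samples, ordered by group, batch and replicate number. D. freteri, at the top, takes 3.35% to 7.13% of the genus in control samples and 5.85% to 15.6% in FO samples.

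Duncaniella sp001689575 separated the groups in E53B and not in E56A, a difference that did not pass its test over all samples. In E53B its share ran from 0.374% to 1.18% in control samples and from 0.110% to 0.302% in FO samples, and each of the 5 FO values was under the lowest of the 5 control values. The same was so in E53B for Duncaniella, Muribaculum, D. dubosii and both Muribaculum species, and the share of all entries was not counted. In E56A D. sp001689575 ran from 0.295% to 0.643% and from 0.314% to 0.677%, with no separation. The log2 change was −1.92 ± 0.41 over both batches with TMM scaling (edgeR, adjusted p = 0.00143), −3.26 ± 0.37 in E53B alone (edgeR, adjusted p = 2.82e-05) and −0.60 ± 0.46 in E56A alone (edgeR, adjusted p = 0.492). The test of the difference, an interaction of FO and batch, gave 2.18 ± 0.60 on the log2 scale and did not pass (edgeR, adjusted p = 0.108), while it passed against the total (2.39 ± 0.58, adjusted p = 0.0363). Without the pair it was 2.63 ± 0.60. It passed as well in 9 of 20 fits that each left out 1 sample (control replicates 1, 3, 7, 8 and 10 and FO replicates 1, 2, 4 and 5, adjusted p from 0.0084 to 0.0311). With all samples and TMM scaling 0 of 71 species entries (0%) were called for this interaction, with 9 at an unadjusted p under 0.05. DESeq2 called 2 and limma on centred log ratios 3, of which 1 each was this species.

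The 2 CAG-485 species that passed the filter had different values on every scale, but the ratio between them did not pass the test. CAG-485 sp002362485 ran from 0.899% to 1.87% in control samples (median 1.08%) and from 0.430% to 1.65% in FO samples (median 0.862%). CAG-485 sp900547755 ran from 0.511% to 1.43% (median 0.627%) and from 0.340% to 1.75% (median 0.861%). In both species the groups overlapped. With TMM scaling the first fell by 1.22 ± 0.32 (edgeR, adjusted p = 0.00733), a call that was lost against the total (−0.43 ± 0.24, edgeR, adjusted p = 0.12) and whose sign turned against Muribaculaceae reads (0.17 ± 0.25, edgeR, adjusted p = 0.541). With TMM scaling the second was at −0.34 ± 0.34 (edgeR, adjusted p = 0.467), a direction that turns to 0.44 ± 0.28 against the total. Against Muribaculaceae reads CAG-485 sp900547755 was higher by 1.01 ± 0.29 (edgeR, adjusted p = 0.00437), from 0.908% ± 0.303 (SD, n = 10) to 1.81% ± 0.811 (SD, n = 10) of the family. That call was lost in E56A alone (0.69, edgeR, adjusted p = 0.291). The ratio of the first over the second changed by −0.80 ± 0.32 (limma, adjusted p = 0.0613).

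The fourth comparison set batch E56A against E53B. Here 0 of 6 member genera and 0 of 11 member species were called, where 7 of 59 genera (11.9%) and 8 of 71 species entries (11.3%) were. At an unadjusted p under 0.05 there were 1 and 4 members, against 15 of 59 genera and 20 of 71 species entries. DESeq2 and limma on centred log ratios also called 0 members. The counts over all entries varied, from 1 genus and 2 species entries against the total to 11 and 12 in DESeq2, and with 1 sample left out from 1 to 11 genera and from 2 to 9 species entries, so that nothing about the members is read from the contrast. The largest member value at genus level was that of Duncaniella, 0.55 ± 0.23 (edgeR, adjusted p = 0.135). The interaction of FO and batch called 0 of 59 genera (0%), with 6 at an unadjusted p under 0.05, of which 2 were members. UBA3263 was at 1.06 ± 0.43 (edgeR, adjusted p = 0.22) and the entries without a genus name at −1.27 ± 0.50 (edgeR, adjusted p = 0.22).

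Each batch alone gave the following. In E53B 5 of 6 member genera were called lower with TMM scaling, where 8 of 61 genera were (13.1%), UBA3263 among them at −1.33 ± 0.19 (edgeR, adjusted p = 8.0e-05), and the entries without a genus name were at 0.42 ± 0.26 (edgeR, adjusted p = 0.307). CAG-485, another of the 5, was at −0.63 ± 0.21 (edgeR, adjusted p = 0.0468), although its mean share of total reads was 1.76% ± 0.204 (SD, n = 5) in control and 2.20% ± 0.430 (SD, n = 5) in FO samples of that batch. There 4 of 5 FO values exceeded the highest control value, so that its direction depends on the scale. UBA3263 ran from 4.78% to 5.78% of total reads in E53B control samples and from 2.75% to 5.43% in FO samples. In E56A 0 of 6 members and 0 of 62 genera were called, with 3 of the members and 11 of the genera at an unadjusted p under 0.05. Without the pair, 2 of 6 were called lower in E56A, Muribaculum and Paramuribaculum, where 4 of 63 genera were (6.35%). The choice of the pair partly fixes these calls. UBA3263 was then at 0.12, opposite in sign to E53B (interaction without the pair 1.29 ± 0.57, edgeR, adjusted p = 0.309). Paramuribaculum then ran from 1.48% to 1.88% in 4 control samples and from 0.248% to 0.547% in 4 FO samples of E56A. With the pair kept, the E56A ranges overlapped, at 0.635% to 1.88% in control and 0.248% to 3.15% in FO samples. The share of all entries that separated in 4 against 4 samples was not counted.

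The other TMM changes without the pair and in E53B alone, on the log2 scale, were as follows. Duncaniella was at −1.67 ± 0.31 without the pair and −1.74 ± 0.21 in E53B, and Muribaculum at −2.16 ± 0.34 and −2.15 ± 0.25. Paramuribaculum was at −1.85 ± 0.36 in E53B. Without the pair UBA3263 was at −0.71 ± 0.32 and did not pass (edgeR, adjusted p = 0.133), and the entries without a genus name were at 0.15 ± 0.28. Among the species, D. dubosii was at −2.44 ± 0.31 without the pair and −2.25 ± 0.27 in E53B, D. muris at −0.85 ± 0.24 and −1.32 ± 0.30, and D. freteri at −0.12 ± 0.29 and −0.28 ± 0.29. D. sp001689575 was at −2.03 ± 0.46 without the pair. M. intestinale was at −1.82 ± 0.28 and −1.95 ± 0.27, CAG-485 sp002362485 at −1.32 ± 0.29 and −0.96 ± 0.24, and CAG-485 sp900547755 at −0.35 ± 0.36 and −0.19 ± 0.30. All of these values had the sign of the fit of all samples except those of the entries without a genus name.

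In E56A alone, with the pair in it, no member passed the test with TMM scaling. Duncaniella was at −1.31 ± 0.42 (edgeR, adjusted p = 0.149), Muribaculum at −1.39 ± 0.55 (edgeR, adjusted p = 0.174), CAG-485 at −1.13 ± 0.50 (edgeR, adjusted p = 0.25) and Paramuribaculum at −1.38 ± 0.75 (edgeR, adjusted p = 0.337). UBA3263 was at 0.01 ± 0.41 and the entries without a genus name at −0.55 ± 0.44. Of the species, D. dubosii was at −2.14 ± 0.55 (edgeR, adjusted p = 0.0689) and CAG-485 sp002362485 at −1.56 ± 0.45 (edgeR, adjusted p = 0.0977). M. intestinale was at −1.16 ± 0.53, D. muris at −0.72 ± 0.38, CAG-485 sp900547755 at −0.49 ± 0.55 and D. freteri at −0.26 ± 0.51, with adjusted p from 0.382 to 0.759 in edgeR.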

How the data were processed

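The authors deposited whole-number read counts per taxon, not normalized, of which the genus and species tables were used here. Per the methods, V4 amplicons were sequenced in pairs on an Illumina MiSeq, trimmed with cutadapt, merged with vsearch, filtered by quality score and checked for chimeras (QIIME2), grouped into operational taxonomic units and named with a naive Bayes classifier trained on Greengenes2. The submitters' processing notes also name bcl2fastq 2.2. Species names therefore rest on a short stretch of 1 gene. Members and lists were chosen with earlier results of these data known.

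Counts were tested with edgeR 4.0.16 (quasi-likelihood, TMM, filterByExpr, group and batch as terms) over all entries that passed the filter, with Benjamini-Hochberg adjustment and a 5% threshold. Against the total, TMM factors were left out, and against the family, the summed Muribaculaceae reads served as library size. The log2 ratios of species of a genus used a pseudocount of 0.5 and limma 3.58.1. These ratios, the species tests against the family and between batches, and the fits of E56A without control replicate 1 and FO replicate 5 were added after the data were seen. DESeq2 1.42.0 and limma on centred log ratios were alternatives. The edgeR and limma steps were tested on simulated data. Every member genus was to be named, and members whose mean share reached 0.1% were given with tests. Replicate numbers follow accession order and only name samples. The labels give each sample as a separate mouse only through the methods (1 pellet per mouse), and mice of a shared cage would not be independent. Software was R 4.3.3 and Python 3.11.15 with matplotlib 3.10.9, scipy 1.17.1, pandas 2.3.3 and numpy 2.4.6.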

Additional observations from a re-analysis of the deposited data

Results flagged for a closer look

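A sample lay far from the 9 others of its group in 9 of 28 groups of shares examined, by the gap to its nearest neighbour over the range of the group. Chance would give about 1.4 of 28. Control replicate 1 accounts for 4 of them, control replicate 5 for 3 and FO replicate 5 for 2, all in batch E56A.

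In control replicate 1 the entries without a genus name were at 4.44% of total reads (other control samples 1.36% ± 0.158), Duncaniella muris at 3.99% (others 2.02% ± 0.456), Paramuribaculum at 0.635% (others 1.77% ± 0.238) and Muribaculum gordoncarteri at 0.0135% (others 0.253% ± 0.0324). In FO replicate 5 Paramuribaculum was at 3.15% (other FO samples 0.721% ± 0.527) and Muribaculum gordoncarteri at 0.396% (others 0.00954% ± 0.00405). The TMM changes of the members are given with and without this pair in the report.

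Control replicate 5 was high in Duncaniella dubosii at 5.61% (others 2.23% ± 0.574), in CAG-485 at 3.30% (others 1.78% ± 0.179) and in CAG-485 sp900547755 at 1.43% (others 0.638% ± 0.0965). Without it the TMM call of CAG-485 was lost (log2 change −0.65, edgeR, adjusted p = 0.0661), and Duncaniella dubosii stayed called lower.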

How the results depend on the processing

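No paired analysis was possible because the replicate numbers only name samples in accession order. With the counts set against the total, members called lower with TMM scaling went from 4 to 2 genera and from 7 to 4 species. Batch E56A alone gave 0 in both, 0 of 6 genera and 0 of 11 species higher and 0 species lower against Muribaculaceae reads, and 0 of 8 pairs of species. Over all entries it gave 0 lower with TMM scaling, 4 of 62 genera and 1 of 73 species entries higher against the family, and 0 of 18 pairs. E56A without control replicate 1 and FO replicate 5 gave 2 genera and 4 species lower, and 1 genus lower against Muribaculaceae reads, as did both batches together without the pair. Over all entries E56A without the pair gave 4 of 63 genera and 6 of 75 species entries lower. The choice of the pair partly fixes these counts. The interaction for member species went from 0 to 1 against the total, in DESeq2, in limma (centred log ratio) and without the pair. Over all genera, 13 of 59 were called with TMM scaling, 29 against the total, 20 of 34 with a mean share filter and 0 of 62 in E56A alone (6 without the pair), with 6 to 18 when 1 sample was left out, and over all species entries 17 of 71, 35 against the total and 0 in E56A alone (9 without the pair). Leaving out 1 sample at a time, member genera called lower ran from 3 to 5, member species from 7 to 8, member genera against the family from 0 to 1 lower and 2 to 3 higher, member species against the family from 2 to 3 lower and 4 to 5 higher, member pairs from 4 to 6 and the interaction for member species from 0 to 1; members higher with TMM scaling, between batches and in the genus interaction stayed at 0 to 0. Over all entries the same fits called 5 to 8 genera and 9 to 11 species entries lower with TMM scaling. Against the family they called 0 to 2 of 59 to 65 genera lower and 37 to 47 higher. Of 71 to 75 species entries, 2 to 4 were lower and 44 to 52 higher against the family. Of 18 pairs, 4 to 6 were called. The summed share of total reads differed by −2.83 to −1.92 percentage points and that of the family by 4.96 to 6.69.

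Signs turned as follows (log2). Against the total, UBA3263 went to 0.079, the entries without a genus name to 0.64, CAG-485 sp900547755 to 0.44 and Duncaniella freteri to 0.52. In E56A alone, UBA3263 was at 0.0074, Duncaniella sp001689575 against the family at 0.65, CAG-485 sp002362485 against the family at −0.30, Duncaniella against the family at 0.029 and D. muris over D. sp001689575 at −0.14; without the pair in E56A, UBA3263 was at 0.12, D. freteri at 0.014, and against the family Duncaniella was at 0.31, D. sp001689575 at 1.08 and CAG-485 sp002362485 at −0.23. The entries without a genus name were at 0.0084 with no filter, 0.0038 with a mean share of at least 0.1%, 0.42 in E53B and 0.15 without the pair, and from −0.26 to 0.13 with 1 sample left out. Duncaniella against the family was at 0.028 without the pair. D. dubosii over D. sp001689575 was at 1.00 in E53B (limma, adjusted p = 0.0186), −2.01 in E56A without the pair and from −0.34 (without the pair) to 0.040 (without control replicate 5). The causes were not tested. UBA3263 was called lower with RLE scaling, DESeq2, limma, the mean share filter and in E53B (adjusted p from 8.0e-05 to 0.0417). CAG-485 lost its TMM call with no filter (−0.74, adjusted p = 0.0911). Depth kept CAG-485 sp002493045 (2 reads) out of the tests with a filter and limits M. gordoncarteri, for which 5 of 10 FO samples had at most 3 reads.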
